A study of Mus musculus with 6 samples.

Results

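Macrophages are the most numerous immune cells of the testis. The genes described here are 10 markers of that lineage, Csf1r, Adgre1, Cd68, C1qa, C1qb, C1qc, Fcer1g, Tyrobp, Mrc1 and Cd163. They were taken by gene name from a deposited table of 55711 gene entries, and all 10 matched 1 entry each. The table gives FPKM, fragments per gene kilobase scaled by a size for each library, for RNA of 6 mouse testis libraries. All came from the C57BL6 strain, 3 from heterozygotes that served as controls and 3 labelled as Tmc7 knockout. The labels give neither age nor the targeted allele, and they do not say that each library is 1 animal. The p-values therefore reflect spread among these libraries alone, which may be technical. Tmc7 encodes a transmembrane channel-like protein, and the study concerns its role in elongating spermatids.

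Testicular macrophages live in the interstitium beside Leydig cells and on the wall of the seminiferous tubules. They depend on signalling through the receptor encoded by Csf1r, they secrete the complement protein C1q, and they take up debris through scavenger receptors such as those encoded by Mrc1 and Cd163. In whole testis they are a small population beside the germ cells. Differences in the number of macrophages, in RNA per macrophage and in the share of germ cells therefore cannot be told apart in these data.

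The FPKM values could be turned back into whole reads, 17059486 to 19343479 in a library. The 10 macrophage genes together held 1544, 1725 and 1961 reads in control libraries 1, 2 and 3, and 1659, 2242 and 2297 reads in knockout-labelled libraries 1, 2 and 3. That is 90.5, 93.1 and 105 RPM (reads scaled to library size) in controls and 85.8, 129 and 127 RPM in the knockout-labelled libraries. Tmc7 itself was at 39.1, 37.7 and 37.2 FPKM across controls, against 43.8, 41.9 and 35.1 FPKM in knockout-labelled testes, so its transcript total does not check the labels. Directions below rest on the labels alone.

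All 10 macrophage genes had a higher mean in the knockout-labelled libraries, by 1.03-fold to 1.75-fold, though C1qc and Mrc1 lay below 0 (-0.072 and -0.082 log2 units) when libraries were scaled to lists of somatic cells. The higher values came mostly from knockout-labelled libraries 2 and 3. No gene passed the test. In limma-trend on log2(FPKM + 1) over the 19168 genes averaging 0.5 FPKM or more, which included all 10, 0 of 10 had a Benjamini-Hochberg adjusted p under 0.05, against 0% of all genes tested. At an unadjusted p under 0.05 there were also 0 of 10, where 3.87% of all genes had such a p and 1.48% were also higher in the knockout-labelled libraries. This count changed with single libraries. Without knockout-labelled library 1 it was 3 of 10 (Csf1r, C1qa and Cd68), where 7.82% of all genes had such a p and were higher. Without control library 3 it was 2 (Fcer1g and Tyrobp, against 1.16% of all genes), and without knockout-labelled library 2 it was 1 (C1qb, against 1.04%). With control library 3 and knockout-labelled library 1 both left out it was 5, against 6.29%. By the mean level of the 10 genes these are the highest control and the lowest knockout-labelled library. Leaving them out therefore widens the difference. By limma-voom on the recovered reads 0 of 10 passed, against 0.00486% of the 20556 genes in that fit. There too 0 of 10 had an unadjusted p under 0.05, against 1.58% of genes that did and were higher. The median log2 difference of the 10 genes was 0.23, and that of all genes tested was -0.0058. Of all genes tested 48.6% had a difference above 0, and 8.08% a difference larger than this median. The median of the 10 genes was 0.12 without knockout-labelled library 3, 0.14 with libraries scaled to somatic cell lists, and 0.065 with the late spermatid level as a covariate. The 10 genes were picked with earlier results of these data known, so their common direction is a description.

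**Figure D1:**
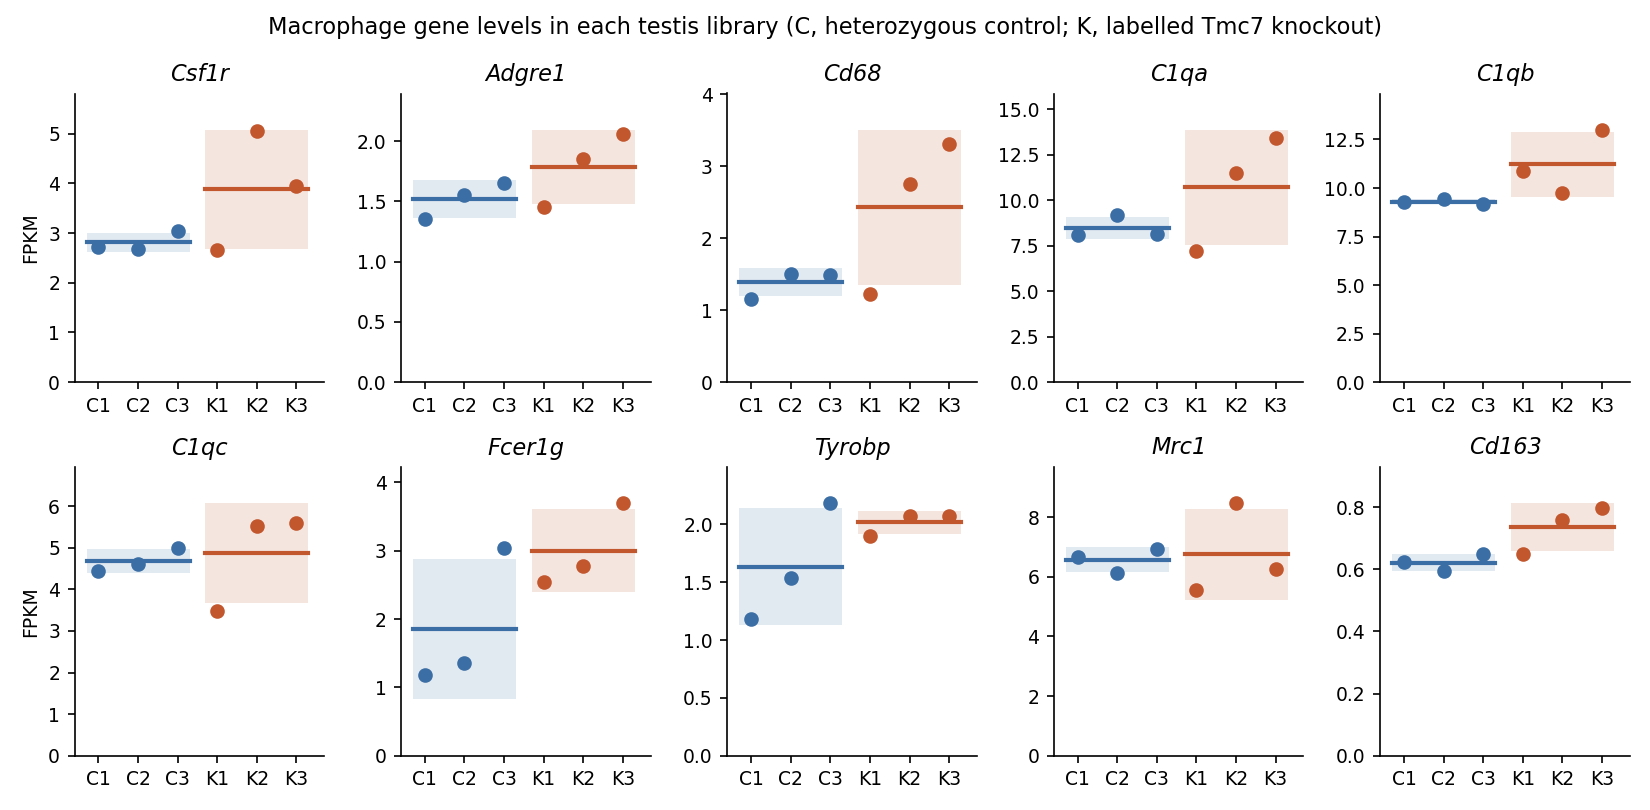
FPKM of each macrophage gene (y axis, starting at 0) in the 6 libraries (x axis; C, control; K, labelled knockout). Points are libraries, lines are group means and shaded bands are 1 SD over 3 libraries. The highest point is in K2 or K3 for 9 of 10 genes, and K1 lies among or below the controls for most genes.

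Knockout-labelled library 1 stood with the controls. It held the lowest value of all 6 libraries for 4 of 10 genes (Csf1r, C1qa, C1qc and Mrc1), as did control library 1 for another 4 (Cd68, Adgre1, Fcer1g and Tyrobp). Knockout-labelled library 3 held the highest value for 7 of 10 genes and library 2 for 2 (Csf1r and Mrc1). The mean of the 10 centred log2 values was -0.21, -0.14 and 0.00 for controls 1, 2 and 3, against -0.14, 0.21 and 0.27 for knockout-labelled libraries 1, 2 and 3. Thus knockout-labelled library 1 lay level with control library 2, and libraries 2 and 3 lay above all controls. In 7 of 10 genes at least 2 libraries labelled knockout exceeded all 3 controls. The share of all genes that did so was not counted, so this count only describes the 10 genes. In 2 of 10, C1qb and Cd163, all 3 libraries labelled knockout exceeded all controls. Over all genes tested, 8.56% had groups that did not overlap and 4.15% were also higher in the knockout-labelled libraries.

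Csf1r encodes the receptor for colony-stimulating factor 1 and interleukin 34, the growth factors on which macrophages depend. The gene (ENSMUSG00000024621) lies on the plus strand of chromosome 18 from 61105572 to 61132149 in GRCm38, the build named in the submitters' processing notes. Csf1r was at 2.73, 2.68 and 3.04 FPKM across controls, against 2.65, 5.05 and 3.95 FPKM in knockout-labelled testes. Knockout-labelled libraries 2 and 3 were above every control and library 1 was below every control, so the groups overlapped. The means were 2.81 ± 0.196 and 3.88 ± 1.20 FPKM (SD, n = 3 each), and the log2 difference was 0.33 (standard error 0.19, 95% interval from -0.11 to 0.76, limma adjusted p = 0.868). It was 0.16 without knockout-labelled library 2, 0.52 without library 1 and 0.13 with the late spermatid level as a covariate. Reads of Csf1r may be shared with a neighbour. It overlaps Hmgxb3 on the opposite strand, and no source used here tells whether counting used strand. Other genes, of which Hmgxb3 shares the most, share 14.95% of its 31-base words. That share is from GENCODE M21, whose position for Csf1r differs from the one given above. Hmgxb3 had 9.47, 9.72 and 10.4 FPKM for controls, against 9.74, 13.1 and 11.6 FPKM for knockout-labelled libraries, with the same 2 libraries high. The part of these reads in the Csf1r values was not tested.

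Adgre1 encodes F4/80, a surface receptor used to recognise mouse macrophages. It lies on chromosome 17 from 57358691 to 57483527. Adgre1 was at 1.35, 1.55 and 1.66 FPKM across controls, against 1.45, 1.85 and 2.06 FPKM in knockout-labelled testes. Knockout-labelled library 1 lay between control libraries 1 and 2. The log2 difference was 0.14 (standard error 0.13, limma adjusted p = 0.868). Leaving out knockout-labelled library 3 gave 0.072, leaving out library 1 gave 0.23 and leaving out control library 1 gave 0.093, while the late spermatid covariate gave 0.0095. Of the 10 genes, Adgre1 lay closest to the mean profile of the group over the 6 libraries, with a root-mean-square distance of 0.065 log2 units.

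Cd68 encodes a glycoprotein of macrophage lysosomes and lies on chromosome 11 from 69664213 to 69666153. It was at 1.16, 1.50 and 1.49 FPKM across controls, against 1.22, 2.75 and 3.31 FPKM in knockout-labelled testes. The values rested on 24, 35 and 36 reads and on 29, 60 and 81 reads. Knockout-labelled library 1 lay within the control range and the other two lay well above it, and the exact 95% Poisson interval of knockout-labelled library 2, 2.10 to 3.54 FPKM, began above the upper bound of each control (at most 2.09 FPKM). Such intervals cover counting error only. The ratio of means was 1.75, and the log2 difference of 0.47 had a standard error of 0.24 (95% interval from -0.11 to 1.05, limma adjusted p = 0.868). It was 0.28 without knockout-labelled library 3, 0.76 without library 1 and 0.13 with the late spermatid level as a covariate.

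RefSeq promoter sequences in GRCm38.p6 were at hand for 6 of the 10 genes. Macrophage promoters are bound by the ETS factor PU.1, and GAGGAA is the core of its sites. Shown are the 4 promoters that held this motif (C1qb, C1qc, Cd68 and Mrc1), and that of Fcer1g, which did not. Cd163, also without a match, is not shown. Each runs 5′ to 3′ on the strand of the gene, covers up to 250 bases before the RefSeq start, and omits bases that GENCODE M21 places in an exon of the gene. Capitals mark GAGGAA on either strand (TTCCTC on the other).
C1qb, chr4:136886201-136886450, minus strand: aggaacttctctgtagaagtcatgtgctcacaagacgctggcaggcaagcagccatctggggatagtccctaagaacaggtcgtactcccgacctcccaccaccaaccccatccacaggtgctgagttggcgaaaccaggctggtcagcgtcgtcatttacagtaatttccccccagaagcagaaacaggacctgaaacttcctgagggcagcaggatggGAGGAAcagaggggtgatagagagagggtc
C1qc, chr4:136893066-136893164, minus strand: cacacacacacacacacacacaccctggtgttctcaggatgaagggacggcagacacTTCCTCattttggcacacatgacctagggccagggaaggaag
Cd68, chr11:69666171-69666420, minus strand: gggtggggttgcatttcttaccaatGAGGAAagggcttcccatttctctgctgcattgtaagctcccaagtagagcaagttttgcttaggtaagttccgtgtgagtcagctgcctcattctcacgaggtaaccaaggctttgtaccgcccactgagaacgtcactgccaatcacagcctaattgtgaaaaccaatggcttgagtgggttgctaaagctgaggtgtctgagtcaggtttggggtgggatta
Mrc1, chr2:14229164-14229391, plus strand: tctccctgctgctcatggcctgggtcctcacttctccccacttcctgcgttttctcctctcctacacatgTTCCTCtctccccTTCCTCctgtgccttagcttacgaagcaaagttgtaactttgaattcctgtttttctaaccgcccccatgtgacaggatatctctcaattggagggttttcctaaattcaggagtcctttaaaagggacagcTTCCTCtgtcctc
Fcer1g, chr1:171234366-171234599, minus strand: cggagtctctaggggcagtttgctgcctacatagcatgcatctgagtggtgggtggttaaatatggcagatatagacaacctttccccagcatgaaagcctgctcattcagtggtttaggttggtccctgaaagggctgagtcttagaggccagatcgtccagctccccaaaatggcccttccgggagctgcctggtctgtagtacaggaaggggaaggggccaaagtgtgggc
GAGGAA was found in the 250-base windows of 4 of the 6 genes, against 23.3% of all 32851 RefSeq promoter windows of that length. Mrc1 held 3 copies, all on the opposite strand. These are matches of letters and not measured binding sites.

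C1qa, C1qb and C1qc encode the chains of C1q, which starts the classical complement pathway and marks dying cells for uptake. The genes follow each other on the minus strand of chromosome 4 within 18675 bases, from 136880129 to 136898803, with 0 other entries of the table between them, and 0% of their 31-base words occur in other genes. C1qb and C1qa were the most abundant of the 10 genes per length. C1qb was at 9.27, 9.43 and 9.18 FPKM across controls, against 10.9, 9.75 and 13.01 FPKM in knockout-labelled testes. All 3 libraries labelled knockout were above all controls, library 2 by the least. The means were 9.30 ± 0.124 and 11.2 ± 1.65 FPKM (SD, n = 3 each), and the log2 difference was 0.24 (standard error 0.11, 95% interval from -0.03 to 0.51, limma adjusted p = 0.868). Without knockout-labelled library 3 it was 0.13, and with somatic scaling also 0.13. The control values differed by less than counting error gives: their SD was 1.34% of the mean, while 1 SD of counting was between 6.02% and 7.76% in the 6 libraries.

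C1qa was at 8.07, 9.19 and 8.16 FPKM across controls, against 7.22, 11.5 and 13.4 FPKM in knockout-labelled testes. Here knockout-labelled library 1 was the lowest of all 6 and library 3 the highest. The log2 difference was 0.27 (standard error 0.20, limma adjusted p = 0.868), and it was 0.099 without knockout-labelled library 3, 0.50 without library 1 and 0.012 with the late spermatid level as a covariate. C1qc was at 4.44, 4.61 and 4.99 FPKM across controls, against 3.48, 5.52 and 5.60 FPKM in knockout-labelled testes. Its order of libraries was like that of C1qa, but the means of 4.68 ± 0.280 and 4.87 ± 1.21 FPKM (SD, n = 3 each) were nearly equal, with a log2 difference of 0.026 (95% interval from -0.36 to 0.41, limma adjusted p = 0.980).

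The mix of the 3 chains differed most between knockout-labelled libraries 1 and 2. Among the reads of the 3 genes C1qb held 37.3%, 35.7% and 35.6% in controls and 45.4%, 31.9% and 36.4% in the knockout-labelled libraries. The exact Clopper-Pearson 95% interval of knockout-labelled library 1 was 41.0% to 49.9% of 493 reads, and those of libraries 2 and 3 ended at 35.9% and 39.9%. The intervals of the controls reached up to 42.0% and so overlapped that of library 1. In FPKM, C1qa was 0.870, 0.975 and 0.888 of C1qb in controls and 0.663, 1.18 and 1.03 of C1qb in the knockout-labelled libraries. C1qa was thus above C1qb in knockout-labelled libraries 2 and 3 and below it in the other 4.

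**Figure D2:**
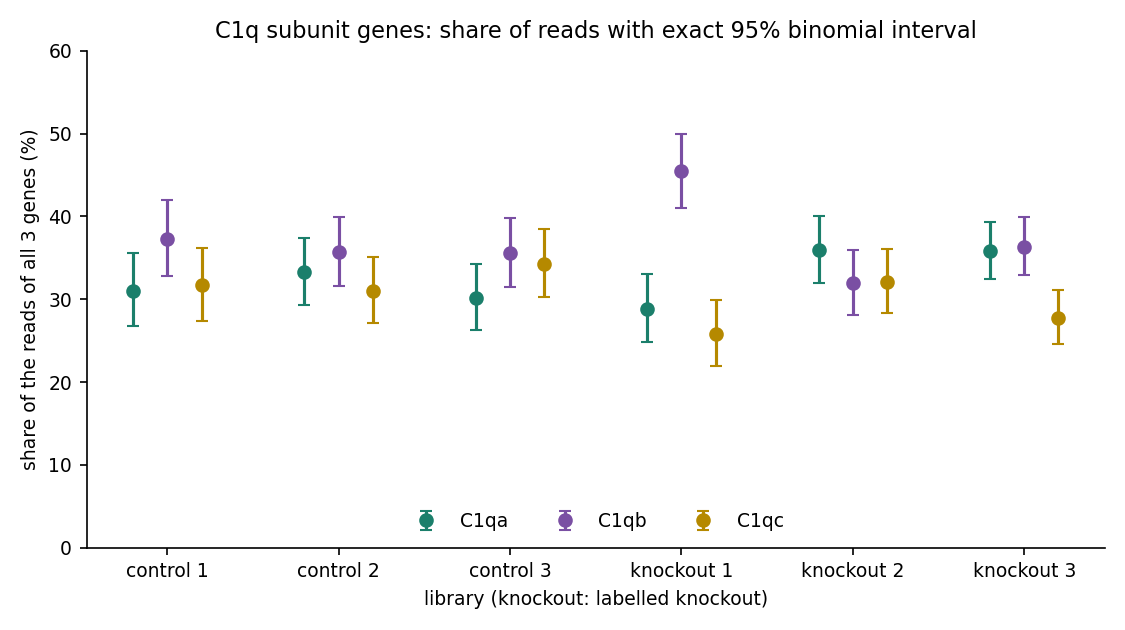
Share of each C1q chain gene in the reads of all 3 genes (y axis, percent) by library (x axis). Points are shares and bars exact 95% binomial intervals, which cover counting error only. The C1qb share of 45.4% in knockout-labelled library 1 is the highest, and the shares in the controls lie between 30.2% and 37.3% for all 3 genes.

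Fcer1g and Tyrobp encode adaptor proteins with an immunoreceptor tyrosine-based activation motif, through which Fc receptors and TREM receptors signal. Both are also used by natural killer cells, and Fcer1g by mast cells. Fcer1g (chromosome 1 from 171229572 to 171234365) was at 1.18, 1.36 and 3.04 FPKM across controls, against 2.54, 2.77 and 3.70 FPKM in knockout-labelled testes. Control library 3 lay with the knockout-labelled libraries, and control libraries 1 and 2 lay below them. The control values came from 17, 22 and 51 reads, with exact 95% Poisson intervals of 0.689 to 1.89, 0.852 to 2.06 and 2.26 to 3.99 FPKM, so the gap within the controls was larger than counting error. The log2 difference of Fcer1g was 0.53 (standard error 0.25, 95% interval from -0.05 to 1.11, limma adjusted p = 0.868). It was 0.81 without control library 3, 0.36 without control library 1 and 0.23 with the late spermatid level as a covariate.

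Tyrobp (chromosome 7 from 30413760 to 30417585) was at 1.18, 1.54 and 2.18 FPKM across controls, against 1.90, 2.07 and 2.08 FPKM in knockout-labelled testes. It was the only member with its highest value in a control, library 3. Its 13 to 28 reads per library were the fewest of the 10 genes, and the log2 difference was 0.21 (standard error 0.15, limma adjusted p = 0.868). With the late spermatid covariate it was 0.080. Without control library 1 the difference was 0.086 and without control library 3 it was 0.36.

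Mrc1 encodes the mannose receptor CD206 and Cd163 the receptor for haptoglobin-haemoglobin complexes, both typical of resident macrophages of the interstitium. Mrc1 (chromosome 2 from 14229392 to 14332057) was the best measured of the 10 genes, with 670 to 936 reads per library. It was at 6.66, 6.12 and 6.94 FPKM across controls, against 5.56, 8.47 and 6.25 FPKM in knockout-labelled testes. Knockout-labelled library 2 was highest and library 1 lowest, and library 3 lay within the control range. The means were 6.57 ± 0.419 and 6.76 ± 1.52 FPKM (SD, n = 3 each), a log2 difference of 0.019 with a 95% interval from -0.33 to 0.37 (limma adjusted p = 0.984). Mrc1 therefore did not share the high value that 7 of the other 9 genes had in library 3.

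Cd163 (chromosome 6 from 124304656 to 124330527) was the least abundant of the 10 per length, at 0.623, 0.593 and 0.648 FPKM across controls, against 0.649, 0.760 and 0.798 FPKM in knockout-labelled testes. The groups did not overlap, but control library 3 and knockout-labelled library 1 were separated by less than 1 read, with 68 and 67 reads at their own depths. The log2 difference was 0.10 (standard error 0.11, limma adjusted p = 0.873), a scale that shrinks the change of so low a gene. The ratio of means was 1.18, and the log2 difference was 0.21 and 0.24 with pseudocounts of 0.1 and 0.01 and 0.24 by limma-voom. The ratio of Mrc1 to Cd163 FPKM was 10.7, 10.3 and 10.7 in controls and 8.57, 11.1 and 7.83 in the knockout-labelled libraries.

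**Figure D3:**
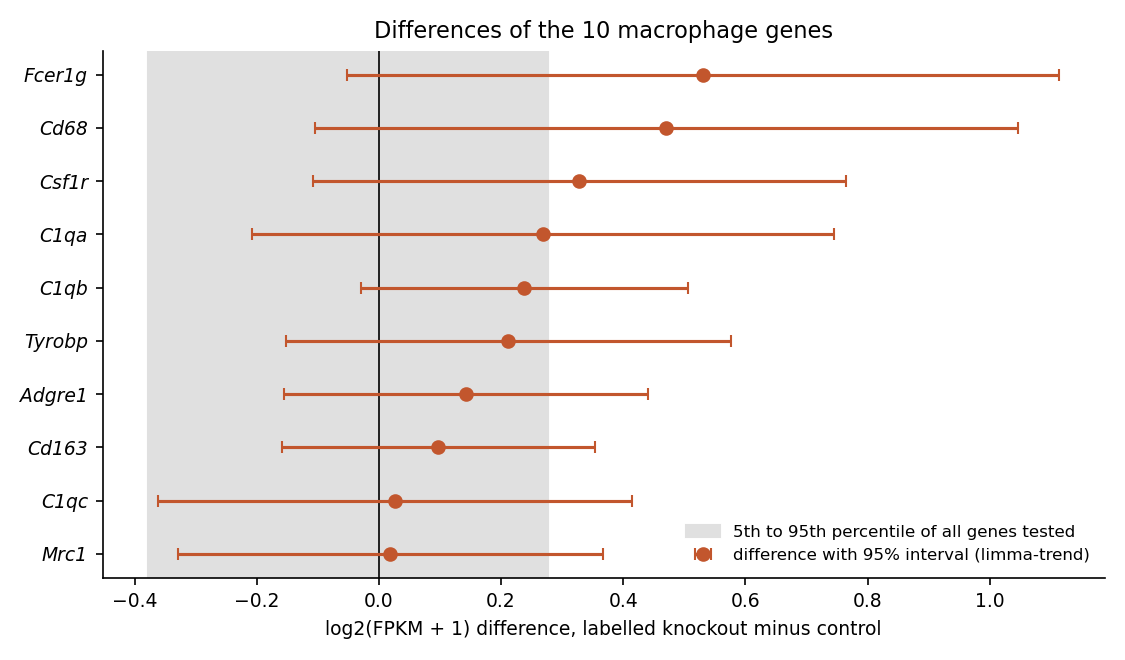
Log2(FPKM + 1) difference, labelled knockout minus control (x axis), of each macrophage gene (y axis) with its 95% interval from limma-trend. The grey band spans the 5th to 95th percentile of all genes tested, from -0.38 to 0.28. All 10 intervals include 0, and Fcer1g, Cd68 and Csf1r lie to the right of the band.

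By mean FPKM over the 6 libraries the order was C1qb at 10.3, C1qa at 9.59, Mrc1 at 6.67, C1qc at 4.77, Csf1r at 3.35, Fcer1g at 2.43, Cd68 at 1.91, Tyrobp at 1.83, Adgre1 at 1.65 and Cd163 at 0.679. The ranges of neighbours in this order overlapped in 8 of 9 pairs, and only Adgre1 and Cd163 were apart. Within libraries the order was firmer: C1qa was above Mrc1, Mrc1 above C1qc and C1qc above Csf1r in 6 of 6 libraries. C1qb was above C1qa in 4 of 6, and Cd68 above Tyrobp in 2 of 6.

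Related genes were taken from 5 lists of macrophage pathways, with 115 genes of which 71 were tested. None passed limma-trend (0 of 71, smallest adjusted p = 0.868), against 0% of all genes tested. At an unadjusted p under 0.05 there were 0, against 3.87% of all genes. By limma-voom, in which 93 of them were measured, 0 passed and 0 had an unadjusted p under 0.05. The shares of all genes in that fit were 0.00486% and 3.8%. The median log2 difference by limma-trend was 0.08, and 42 of 71 were above 0, against 48.6% of all genes tested.

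**Figure D4:**
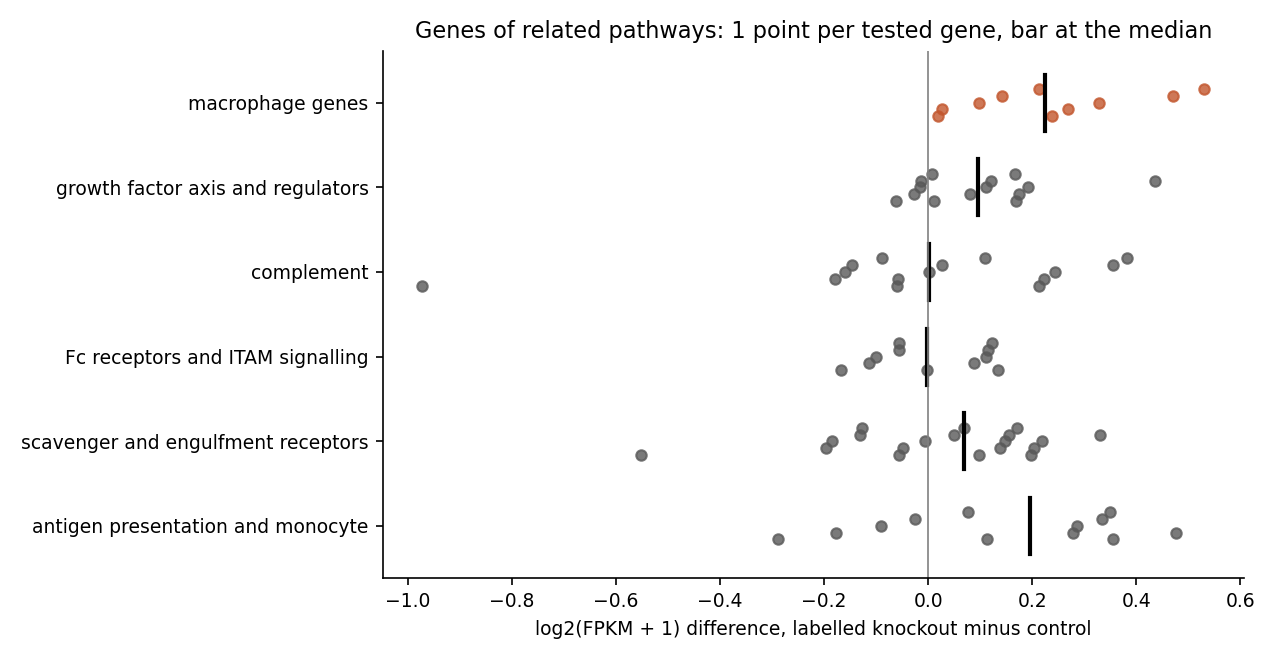
Log2(FPKM + 1) difference, labelled knockout minus control (x axis), of each tested gene in the macrophage group and in 5 related lists (y axis). Bars mark medians, which are 0.23 for the macrophage genes, 0.20 for antigen presentation and between -0.00 and 0.10 for the other 4 lists. Of the 81 points the lowest is Cfd of the complement list, at -0.97.

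Among growth factors and regulators 10 of 14 tested genes had a difference above 0 (median 0.10). The ligands of the Csf1r protein were low and near equal in the groups, Csf1 at 1.40 ± 0.329 and 1.31 ± 0.437 FPKM and Il34 at 0.517 ± 0.169 and 0.485 ± 0.0951 FPKM (controls first, SD, n = 3 each). Cebpb, a transcription factor of myeloid cells, had the smallest unadjusted p of this list, at 1.83 ± 0.424 and 2.91 ± 1.09 FPKM (limma adjusted p = 0.868). Csf2ra, a chain of the receptor for granulocyte-macrophage colony-stimulating factor, was at 3.46 ± 0.0647 and 4.17 ± 1.10 FPKM, with the high value in library 3. Nr1h3, a sterol-sensing nuclear receptor, and Tgfbr1, a receptor for transforming growth factor beta, were at 5.19 ± 0.530 and 11.8 ± 0.955 FPKM for controls, against 5.68 ± 0.292 and 11.7 ± 0.979 FPKM in the knockout-labelled libraries.

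Beyond C1q, the complement list had 8 of 15 tested genes above 0 (median 0.00). Serping1, the inhibitor of the C1 proteases, was at 11.5, 12.1 and 14.0 FPKM across controls, against 10.5, 18.4 and 17.3 FPKM in knockout-labelled testes. C4b, a substrate of those proteases, was at 5.43, 5.04 and 5.81 FPKM and at 5.07, 10.5 and 6.97 FPKM, and C3, the central component of the cascade, at 3.62, 2.93 and 6.06 FPKM and at 2.37, 11.4 and 5.77 FPKM. In all 3 genes knockout-labelled library 2 was highest. Cd59a, which blocks the membrane attack complex, was at 7.71 ± 0.753 and 6.83 ± 1.05 FPKM (SD, n = 3 each). None had an adjusted p under 0.868.

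In the list of Fc receptors and activation-motif signalling 11 of 24 genes were tested and 5 of 11 were above 0 (median -0.00). Fcgr3, a low-affinity receptor for immunoglobulin G that pairs with the Fcer1g protein, was at 10.2, 10.8 and 10.9 FPKM across controls, against 10.7, 10.3 and 13.9 FPKM in knockout-labelled testes. It was several times as abundant as Fcer1g per length, and only knockout-labelled library 3 stood above the controls. Inpp5d, a lipid phosphatase that restrains this signalling, was at 3.57 ± 0.109 and 3.99 ± 0.523 FPKM. Plcg2, a phospholipase, and Vav1, an exchange factor, were at 3.47 ± 0.150 and 2.09 ± 0.402 FPKM for controls, against 3.15 ± 0.481 and 1.96 ± 0.334 FPKM in the knockout-labelled libraries. Ptprc, the pan-leukocyte marker CD45, was under the filter at 0.109 to 0.174 FPKM, and so was Trem2, a receptor that signals through Tyrobp, at 0.162 ± 0.0604 and 0.282 ± 0.124 FPKM (SD, n = 3 each). Ptprc and Trem2 were chosen after their values were seen.

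Of the scavenger and engulfment list 11 of 19 tested genes were above 0 (median 0.07). Apoe, a lipid carrier that macrophages and other testis cells make, was at 35.0, 35.5 and 36.4 FPKM across controls, against 32.1, 54.5 and 52.2 FPKM in knockout-labelled testes, the same split of libraries as for Csf1r. Lgmn, a lysosomal protease, was at 17.6 ± 1.42 and 20.6 ± 4.52 FPKM, Lyz2, the lysozyme of myeloid cells, at 15.6 ± 1.26 and 18.4 ± 3.01 FPKM, and Gas6, a ligand of engulfment receptors, at 32.5 ± 2.61 and 31.5 ± 3.99 FPKM (SD, n = 3 each). Pf4, a chemokine of platelets and macrophages, had the smallest unadjusted p of the list and lay the other way, at 2.95, 2.55 and 2.82 FPKM across controls, against 2.05, 2.48 and 2.35 FPKM in knockout-labelled testes (limma adjusted p = 0.868).

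Macrophages at the tubule wall carry class II molecules, which present antigen. In the antigen presentation and monocyte list 8 of 12 tested genes were above 0 (median 0.20). Cd74, the invariant chain of class II, was at 9.70, 14.4 and 14.2 FPKM across controls, against 11.1, 28.3 and 18.1 FPKM in knockout-labelled testes. H2-Ab1 was at 6.42, 6.76 and 7.47 FPKM and at 6.07, 9.48 and 10.9 FPKM, and H2-Eb1 at 4.62, 5.61 and 6.86 FPKM and at 4.96, 10.1 and 8.14 FPKM. For these 3 genes knockout-labelled libraries 2 and 3 were above all controls and library 1 was not. Ccl8, a chemokine, had the smallest unadjusted p of the list, at 2.74 ± 0.651 and 3.76 ± 0.620 FPKM (SD, n = 3 each, limma adjusted p = 0.868), with its highest value in library 1. Aif1 encodes IBA1, which is used to stain macrophages, but in these libraries it did not run with the group. It was at 133, 120 and 89.9 FPKM across controls, against 127, 80.1 and 77.1 FPKM in knockout-labelled testes, more than all 10 macrophage genes together (36.7 to 54.2 FPKM), and was low where the macrophage genes were high. By Aif1 the libraries ranked in the same order as by the summed level of 15 late spermatid genes. Which cells held this Aif1 RNA was not tested.

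Values of other cell types also differed between libraries, though 0 genes of these lists passed. The late spermatid list of 15 genes had 15 of 15 tested genes below 0 (median -0.43), and its summed level was 13014 to 21912 FPKM for controls, against 9767 to 18754 FPKM for knockout-labelled libraries, lowest in libraries 2 and 3. The Sertoli list had 11 of 13 tested genes above 0 (median 0.25, summed 564 to 598 and 556 to 739 FPKM), the peritubular myoid list 8 of 9 (median 0.24, summed 175 to 202 and 156 to 200.4 FPKM) and the endothelial list 9 of 11 (median 0.05, summed 18.2 to 19.8 and 17.9 to 23.0 FPKM). The stroma list was even, with 6 of 12 above 0 (median -0.02, summed 159 to 216 and 139 to 213 FPKM), and its mean centred level was highest in control library 3, at 0.24. In the round spermatid list 12 of 12 were below 0 (median -0.19, summed 1294 to 1580 and 1079 to 1527 FPKM). Mean centred log2 levels of the Sertoli list were -0.17, -0.14 and -0.01 in controls and -0.13, 0.16 and 0.28 in the knockout-labelled libraries, close to those of the macrophage genes. Leydig genes differed from this pattern, at 0.03, 0.10 and 0.05 and at 0.21, 0.14 and -0.52, with knockout-labelled library 3 the lowest. The part of these cell types in the macrophage differences was not tested. With the late spermatid level as a covariate the median difference of the 10 genes was 0.065, with C1qc and Mrc1 below 0 at -0.19 and -0.077, and when libraries were scaled to the Sertoli, myoid, endothelial and stroma lists it was 0.14, with the same 2 genes below 0 at -0.072 and -0.082.

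**Figure D5:**
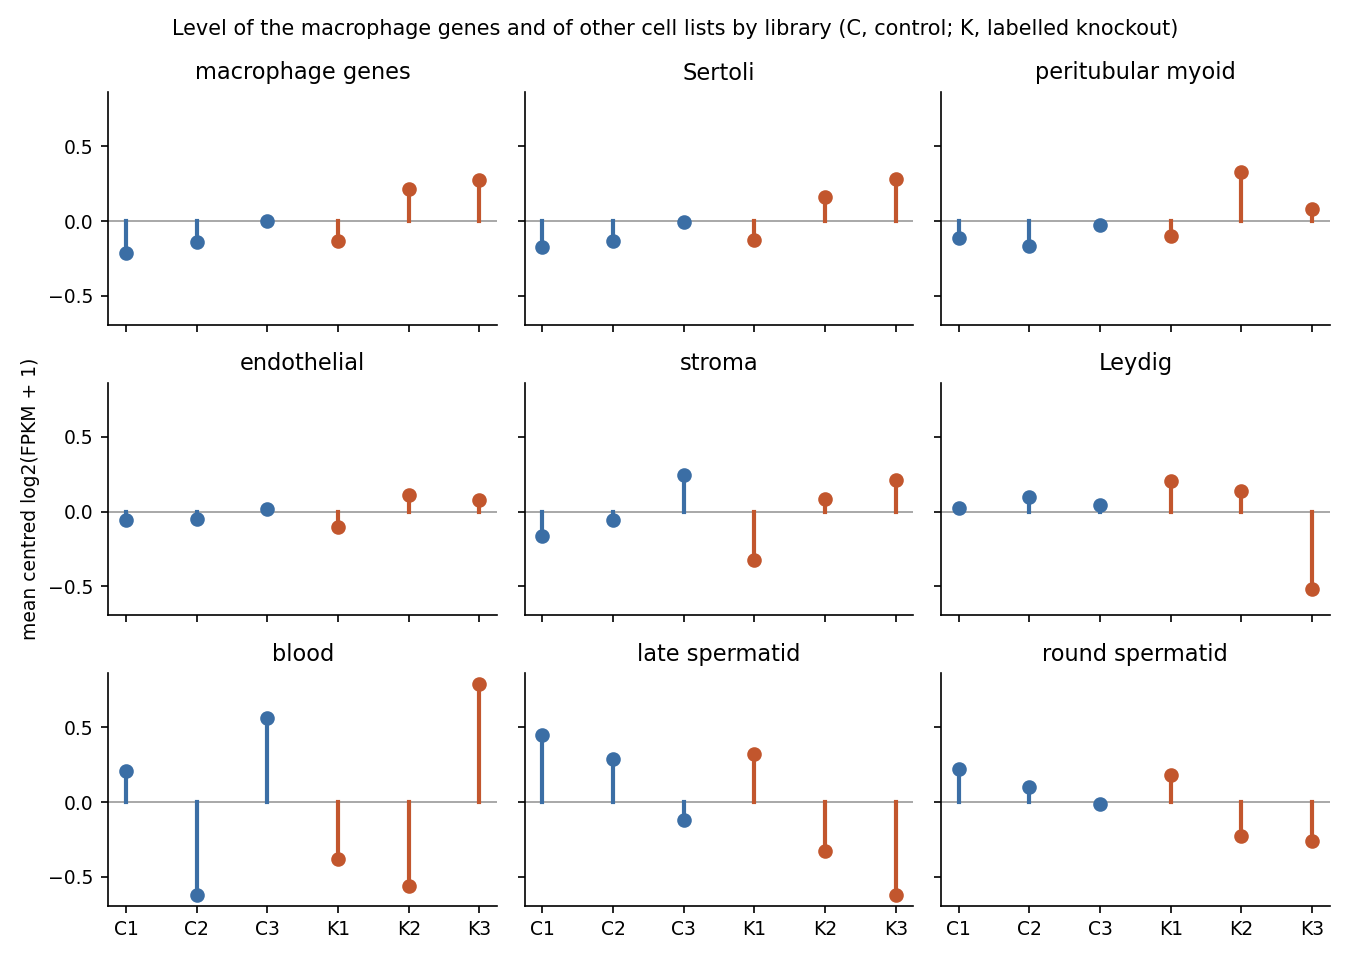
Mean centred log2(FPKM + 1) (y axis) of the macrophage genes and of 8 lists of other cell types in the 6 libraries (x axis; C, control; K, labelled knockout). Macrophage and Sertoli levels are highest in K2 and K3, late spermatid levels are lowest there, and blood levels are highest in C3 and K3.

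Blood differed between libraries without regard to the labels. The summed level of 8 red cell and platelet genes was 20.4, 7.35 and 46.3 FPKM for controls, against 8.76, 7.83 and 56.0 FPKM for knockout-labelled libraries, and Hba-a1, an alpha globin gene, was at 27.3 and 29.4 FPKM in control library 3 and knockout-labelled library 3 and between 0.213 and 5.09 FPKM elsewhere. Knockout-labelled library 3, with the most blood RNA, held the highest value of 7 of the 10 macrophage genes, and control library 3, with the next most, that of Tyrobp. The highest Csf1r and Mrc1 values were in knockout-labelled library 2, where blood was low. The part of blood in the macrophage differences was not tested.

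Markers of other leukocytes were scarce. Of 18 lymphocyte and natural killer genes 5 were tested, and their summed level was 4.48 to 6.51 FPKM for controls, against 5.64 to 7.19 FPKM for knockout-labelled libraries. Ighm and Cd3d, the most abundant, were at 1.33 ± 0.434 and 1.07 ± 0.591 FPKM for controls, against 1.44 ± 0.424 and 0.918 ± 0.267 FPKM in the knockout-labelled libraries. Of the 5 tested, only Trac, the constant region of the T cell receptor alpha chain, had an unadjusted p under 0.05 (limma adjusted p = 0.868). Of all genes tested, 1.48% had such a p and were higher in the knockout-labelled libraries. Trac was at 0.130, 0.173 and 0.668 FPKM across controls, against 0.565, 1.79 and 1.70 FPKM in knockout-labelled testes, so the groups overlapped. Trac was named after its values were seen. Of 18 mast cell and granulocyte genes 2 were tested, Hdc at 3.76 ± 0.184 and 4.25 ± 0.481 FPKM and Mpo at 0.620 ± 0.325 and 0.859 ± 0.352 FPKM (SD, n = 3 each). Fcer1a and Ms4a2, taken here as markers of mast cells, and Ly6g and Retnlg, taken as markers of neutrophils, were listed at 0 in all 6 libraries. Other mast cell genes of the list, Cpa3, Mcpt4, Tpsb2 and Cma1, were under the filter but not at 0 in every library.

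Among 12466 named genes averaging 1 FPKM or more, the 5 whose profiles over the 6 libraries lay nearest to the mean macrophage profile were Klf11, Rabep2, Vps26b, Gnas and Slc4a2, with root-mean-square distances between 0.028 and 0.032 log2 units. The macrophage genes themselves lay at 0.065 to 0.28 from their own mean. Klf11, a zinc finger transcription factor, was at 1.33, 1.43 and 1.68 FPKM across controls, against 1.35, 2.01 and 2.28 FPKM in knockout-labelled testes. With 6 libraries and many genes such near matches are a description only.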

How the data were processed

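Testis RNA was isolated in Trizol, and a SMARTER mRNA-Seq kit gave the libraries, per the labels' protocols. All values come from 1 deposited table, in which the authors give FPKM and gene lengths. GRCm38 and mm10 are named in the submitters' processing notes, while aligner, counter and use of strand were not given in the sources used here. Groups and replicate numbers came from the sample titles. Multiplied by length and rescaled per library, 100% of FPKM values above 0 came out as whole reads within 0.001 reads, and these are the reads cited.

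Group was the only term of a limma-trend model (limma 3.58.1, R 4.3.3) of log2(FPKM + 1), for genes averaging 0.5 FPKM or more, with p-values Benjamini-Hochberg adjusted over all genes tested, threshold 0.05. This scale understates the change of low genes. The procedure was also run on simulated reads, with changes larger than those of the 10 genes and no shifts shared by many genes of a library. That simulation therefore does not bear on differences of the size reported here. The members and gene lists were chosen with earlier results of these data known. Named genes were the 10 members, Tmc7, in each of 5 related lists the 4 of highest mean FPKM and the 1 of smallest unadjusted p, the 2 of highest FPKM in each of 2 other leukocyte lists, and the 5 of nearest profile. One gene that this rule names is not reported here. Csf1, Il34, Cfd, Hmgxb3 and Hba-a1 were added after their values were seen. Shared 31-base words were counted in GENCODE M21 transcripts. Alternatives covered pseudocounts, filters, normalization, a replicate block, limma-voom, a covariate, somatic scaling and left-out libraries.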

Additional observations from a re-analysis of the deposited data

How the results depend on the processing

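Under 18 alternatives 0 of the 10 macrophage genes and 0 of the related genes passed, with smallest adjusted p of 0.135 and 0.127 by limma-trend, both without control library 3 and knockout-labelled library 1 together. Over all genes the count was 0 except with limma-voom, where it was 1. The median difference of the macrophage genes, 0.23, lay between 0.065 (late spermatid level as covariate) and 0.33 (without control library 3 and knockout-labelled library 1). That pair is the highest control and the lowest knockout-labelled library by the mean level of these genes, so leaving it out widens their difference. Leaving out 1 library gave 0.12 to 0.25, with 0.12 without knockout-labelled library 3. With pseudocounts of 0.1 and 0.01 it was 0.27 and 0.28. A filter at 2 FPKM left 4 of the genes untested.

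C1qc was below 0 without control library 1 (-0.0047) and on dropping knockout-labelled libraries 2 or 3 (-0.062 and -0.070), its range over left-out libraries being -0.070 to 0.21. Mrc1 was below 0 without control library 2 (-0.025) or knockout-labelled library 2 (-0.13), its range being -0.13 to 0.13. With the late spermatid covariate C1qc was at -0.19 and Mrc1 at -0.077, and with somatic scaling at -0.072 and -0.082. The cause was not tested. The other 8 genes stayed above 0 in all alternatives run.

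Deviations from the group means correlated at 0.29, 0.04 and 0.20 between libraries of the same number, across 19168 genes. Between libraries of different numbers the correlations ran from -0.32 to 0.17. These values do not settle whether the number pairs samples, and the main model left it out. With the number as a block 0 genes passed by limma-trend, the median difference of the macrophage genes was 0.23, and their smallest adjusted p was 0.662. Fcer1g and Cd68 (2 of 10) then had an unadjusted p under 0.05, as did 2.11% of all genes in that direction. Depth limits Tyrobp, Fcer1g and Cd68 most, with as few as 13, 17 and 24 reads.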
